A study of Artemia parthenogenetic lineage with 3 samples.

Results

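The chromatin around the gene of Frizzled-10 (evm.TU.ctg321.8) was examined in *Artemia* cysts collected 30 min after embryonic diapause termination (EDT). All rows of the deposited table of merged ATAC-seq peaks that name this gene as their nearest gene were taken, which gave 12 of 108316 peaks. ATAC-seq uses the Tn5 transposase to insert sequencing adapters into accessible DNA, and thus the number of reads in a peak measures how open the chromatin is. The ArR_30min group held 3 samples of wild-type parthenogenetic *Artemia* cysts (*Artemia parthenogenetica*) from Ebinur Lake. Their diapause had been broken by drying and cold storage, and they were rehydrated and reactivated in artificial seawater of 30‰ salinity at 28 °C in the light. The peak list was merged over samples of other time points as well, so that a listed peak or summit need not have been called in these 3 samples. No reads of another time or treatment were used here, and therefore the levels below describe a single time point and give no change over EDT. Whole cysts were used, so that a locus open in more cells and a locus more open in each cell cannot be told apart.

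Frizzled proteins are multi-pass receptors of the cell membrane that bind secreted Wnt ligands through a cysteine-rich domain outside the cell. In the canonical pathway, a bound Frizzled acts together with a co-receptor of the LRP family, Dishevelled is recruited, and beta-catenin escapes degradation and enters the nucleus to act on target genes. Wnt signals pattern embryos and direct cell fate and polarity across animals. The name Frizzled-10 is that of the genome annotation cited by the study. Sequences were not used here, and the name was not checked against a protein.

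The library totals were 53022269, 56882821 and 82440231 reads in replicates 1, 2 and 3, and a median peak held 36, 37 and 58 reads. Replicate 3 thus had the smallest counting error. Levels are given as RPM, i.e., the read number scaled to a library of 1000000 reads, and errors are SD over n = 3 samples unless stated otherwise. The samples are described as biological replicates of the same batch of cysts.

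The gene lies on the minus strand at positions 222221 to 260436 of contig ctg321 (assembly ASM3288406v1 of *Artemia franciscana*), and its listed start is thus at 260436. It is 38.2 kb long, near the median of 39931 bp for the 12002 genes listed in the table. Its 12 peaks exceeded the median of 7 peaks per gene. One peak lay over the gene start, 3 lay in the gene body, 7 lay upstream and 1 lay past the gene end. The peaks were spread over 209 kb, with gaps of 1.35 to 65.9 kb between neighbours. Exons, introns and UTRs were not separated here, because the table gives gene ends only. The listed start is that of a gene model, which may lie away from the true start of transcription.

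**Figure D1:**
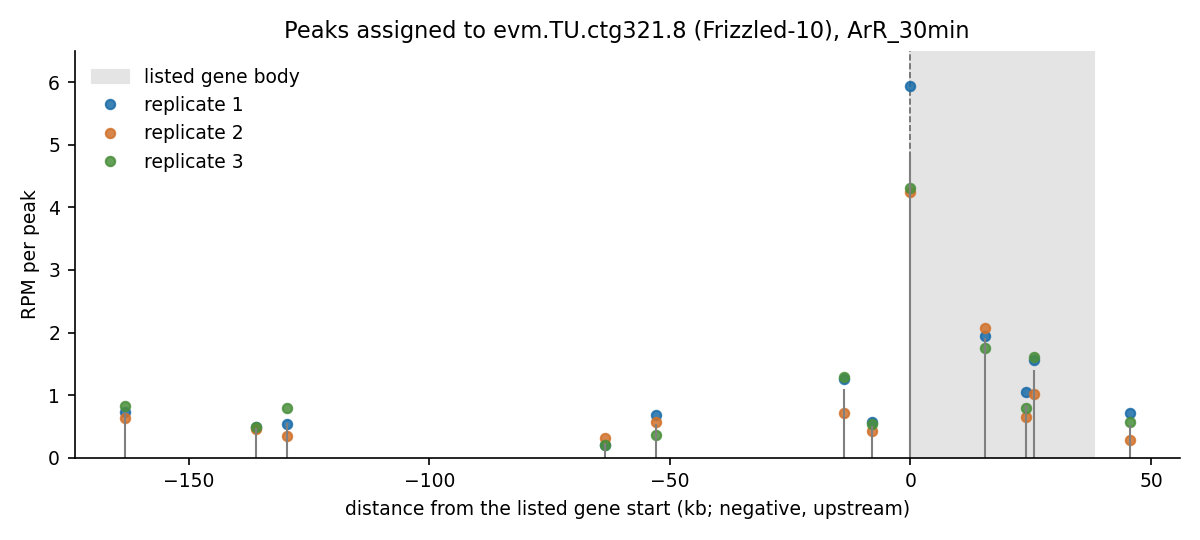
Level of each of the 12 peaks of evm.TU.ctg321.8 against its distance from the listed gene start (kb, upstream negative), with points for the 3 replicates, grey lines up to the mean and shading for the 38.2 kb gene body. The peak over the start had 4.24 to 5.94 RPM and lay above every other peak in each replicate. The next 2 peaks by mean RPM lay in the gene body.

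The peak over the gene start was the strongest of the locus in every replicate. It spans positions 260129 to 261436 of ctg321 and is 1308 bp wide. It held 314, 240 and 354 reads, or 5.94, 4.24 and 4.31 RPM in replicates 1, 2 and 3, with a mean of 4.83 ± 0.964 RPM. Replicate 1 was high, whereas replicates 2 and 3 were close to each other. This peak was also the strongest of the 50 peaks on the contig, and 98.3% of all merged peaks were weaker. The reads exceeded the mean read density outside peaks by 7.94, 5.59 and 5.73 times.

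The start peak took a large part of the reads of the locus. It held 38.2% of the 821 reads in all 12 peaks in replicate 1, 36.6% of 656 reads in replicate 2 and 32.0% of 1105 reads in replicate 3. The library totals show that both reads of a pair were counted, and such reads are not independent. Exact 95% binomial intervals on halved counts were 33.6 to 43.2%, 31.4 to 42.1% and 28.2 to 36.1%, and they account for counting error alone. The mean share was 35.6% ± 3.21. The peak made up 27.3% of the summed width of the 12 peaks, so that much of this share goes with its width. When reads were first divided by peak width, its mean share was 12.2%.

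Most of the width of the start peak lay upstream of the listed start. The peak reached 1000 bp upstream, and the rest of its 1308 bp lay inside the gene. The table lists 10 summits within it, i.e., points of highest read pile-up. Some are only a few bp apart, such as those 383 and 386 bp upstream. Whether these are separate points or 1 point called in several samples was not tested. Numbers of summits here and below are thus numbers of listed entries. The summits formed 3 groups when those over 200 bp apart were separated, a distance chosen after their positions were seen. A group of 3 summits lay 735 to 876 bp upstream, a group of 5 lay 340 to 392 bp upstream, and the other 2 lay 123 and 145 bp inside the gene. The share of 80% of summits upstream was exceeded by 60 of the 183 comparison start peaks described next, whose median was 66.7%. How the reads were spread within the peak was not measured, as the table gives 1 count per peak.

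To place these values, the start peak was set against start peaks of other genes of like length and peak number. The comparison genes were the 523 other genes of 25518 to 57322 bp with 10 to 14 assigned peaks, and 183 of them (35.0%) had a start peak. Among all 12002 listed genes this share was 26.0%.

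The summits of the Frizzled-10 start peak lay farther from the listed start than those of most comparison genes. The closest summit lay 123 bp from the listed start, against a median of 38 bp (quartiles 11.5 and 68.5 bp) for the 183 comparison genes, of which 11 had a more distant closest summit. A summit within 100 bp of the start was present in 162 of the 183 comparison peaks (88.5%), and 45.9% of their 956 summits lay within this window. The Frizzled-10 peak had none there. Conversely, 8 of its 10 summits lay 300 bp or more upstream, where 9.62% of the comparison summits were found, and only 1 comparison peak had as many summits that far upstream. Only 1 of the 183 comparison peaks reached farther upstream, to 1236 bp, and the median was 315 bp (quartiles 185 and 506 bp). The extent into the gene was near the median of 286 bp, at the percentile 55.2, although it was short for a peak of this width. These windows were chosen after the positions were seen, and the values are given as a description without a test.

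Wide start peaks in general had more separate groups of summits. Among the 786 start peaks of all listed genes that were 872 to 1943 bp wide, 44.3% had 3 or more summit groups, compared with 22 of the 183 comparison peaks. Of their summits 18.5% lay 300 bp or more upstream, and 14 of the 786 peaks had 8 or more summits there. The window within 100 bp of the start held 32.8% of their summits, and 87.5% of the peaks had a summit in it. Of these 786 peaks, 54 had a more distant closest summit and 37 reached farther upstream. They reached a median of 529 bp into the gene, and 635 of them reached farther in than the Frizzled-10 peak.

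**Figure D2:**
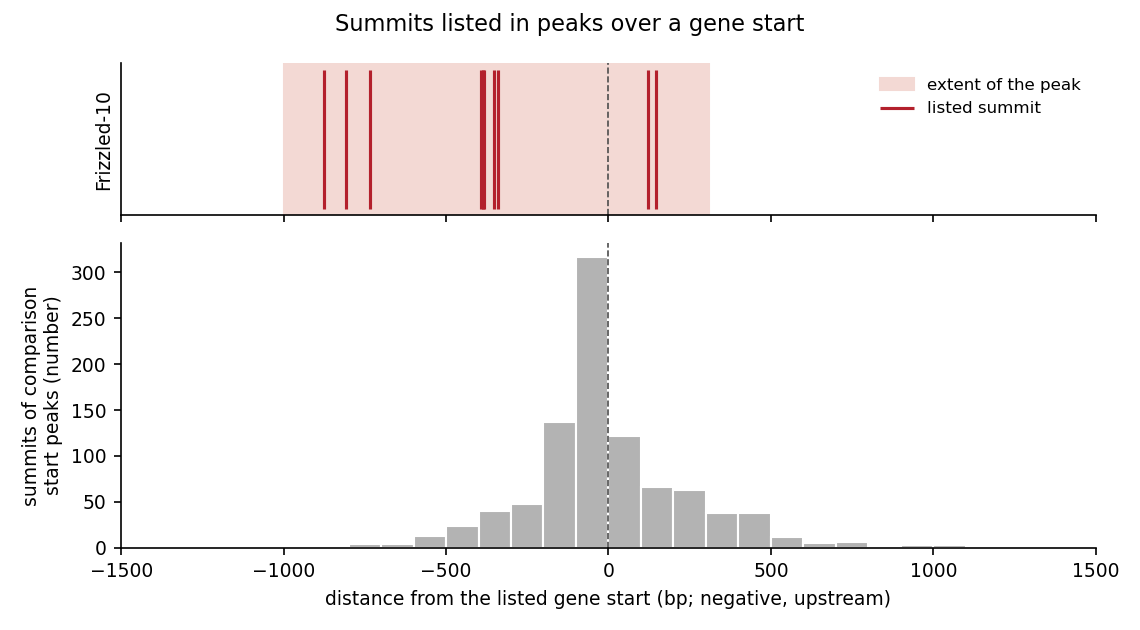
Positions of summits relative to the listed gene start (bp, upstream negative) in the Frizzled-10 start peak (upper panel, lines for the 10 summits and shading for the extent of the peak) and in the start peaks of 183 comparison genes (lower panel, number of summits per bin, with 4 of 956 summits outside the plotted range). The comparison summits gather within 100 bp of the start, while the 3 groups of Frizzled-10 summits lie on either side of this window.

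The start peak of Frizzled-10 was stronger than a typical start peak in each replicate. The median of the 183 comparison start peaks was 2.21, 1.71 and 1.70 RPM in replicates 1, 2 and 3, against 5.94, 4.24 and 4.31 RPM for Frizzled-10. Of the comparison peaks, 13, 14 and 18 were higher in the same order, and the mean level stood at the percentile 92.3. On the log2(RPM + 0.0684) scale Frizzled-10 was higher by 1.40, 1.28 and 1.31, with a mean of 1.33 ± 0.06, so that the difference exceeded the replicate spread. An exact sign-flip permutation test (two-sided, n = 3) gave p = 0.25, which is its lower limit with 3 samples. Of 3 such tests run for this locus, each gave a p and a Benjamini-Hochberg adjusted p of 0.25, and none could pass a threshold of 0.05. In the study, Frizzled-10 became a candidate partly because an associated peak and its RNA were higher in these samples than in diapause. The comparison genes were taken without regard to this selection, and genes that met it were not left out. How much of the difference goes with this selection was not tested.

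The difference was smaller once width was taken into account. The peak was wider than all but 6 of the comparison start peaks, with 1308 bp against a median of 658 bp (quartiles 452 and 900 bp). Per kb of width it had 3.69 ± 0.737 RPM, against a median of 2.98 RPM (quartiles 2.43 and 3.81), and 49 of the 183 were denser. The difference fell to 0.28 ± 0.07 on the log2 scale for RPM per kb, and the percentile fell to 73.2. Against start peaks of like width among all listed genes the difference was 0.57 ± 0.08, with 152 of 786 higher. The width is that of a peak merged over other time points as well, and stronger start peaks were also wider. Level and width thus cannot be told apart here.

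**Figure D3:**
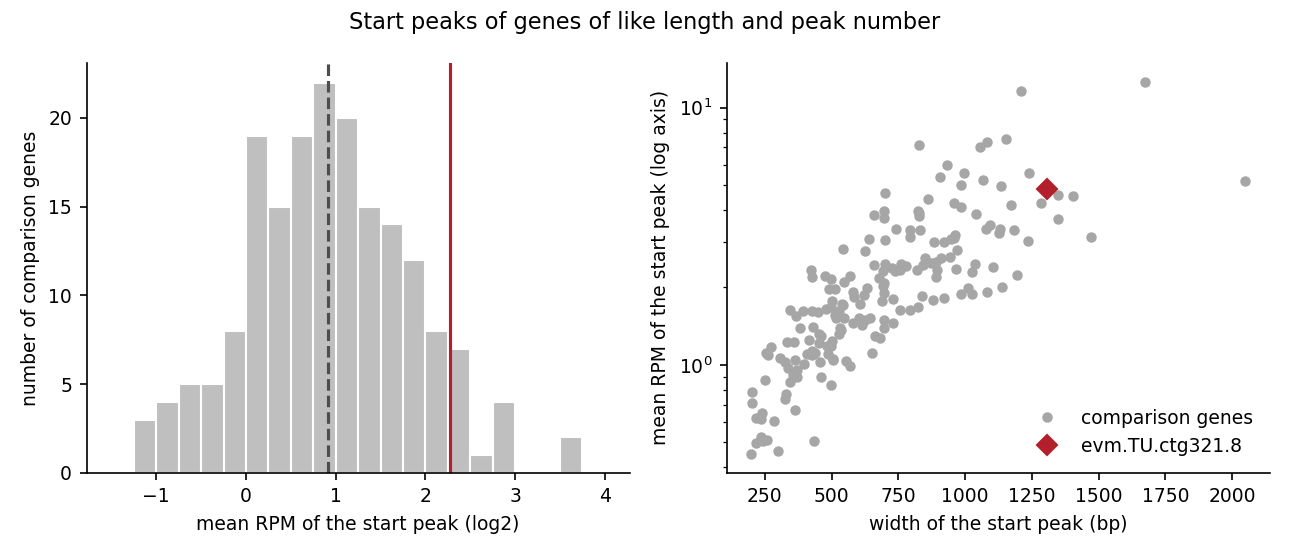
Left, number of comparison genes by the mean RPM of their start peak (log2), with the median of the 183 genes as a dashed line (1.88 RPM) and evm.TU.ctg321.8 as a red line (4.83 RPM). Right, mean RPM of each start peak (log axis) against its width (bp), where stronger peaks are wider and the red diamond of evm.TU.ctg321.8, at 1308 bp, lies among the comparison peaks of similar width.

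A single library did not decide these values, although replicate 1 was the highest. The log2 RPM in replicate 1 exceeded the mean of replicates 2 and 3 by 0.48 at the Frizzled-10 start peak. The median excess over the comparison start peaks was 0.43 (quartiles 0.27 and 0.59), and 159 of these 183 peaks (86.9%) were highest in replicate 1. The Frizzled-10 start peak thus differed between replicates as start peaks in general did. Without replicate 1 its mean level was 4.27 RPM, and its difference from the comparison start peaks was 1.29 on the log2 scale.

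The next 2 peaks by mean RPM lay in the gene body. The peak at 244595 to 245028 of ctg321, 15.4 kb inside the gene, had 1.94, 2.07 and 1.75 RPM, with a mean of 1.92 ± 0.165 RPM. The replicates were close to each other here, and replicate 1 was not the highest. Its level was below that of the start peak in each replicate, by 3.06, 2.04 and 2.47 times. Of the 1597 gene body peaks of the comparison genes, 90.2% were weaker than this peak.

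When width was taken into account, this gene body peak was as dense as the start peak. It is 434 bp wide and had 4.48, 4.78 and 4.02 RPM per kb, against 4.54, 3.24 and 3.29 RPM per kb for the start peak. It was denser in 2 of 3 replicates, but the ranges of the replicates overlapped. The difference of 0.28 ± 0.29 on the log2 scale was within the spread between replicates.

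The other 2 gene body peaks lay close together, 24.1 and 25.7 kb inside the gene. The peak at 234318 to 234778 had 1.57, 1.02 and 1.61 RPM (1.40 ± 0.330), with replicate 2 low. The peak at 236133 to 236367 had 1.06, 0.65 and 0.801 RPM (0.836 ± 0.205), again with replicate 2 the lowest. These levels were above 81.8% and 58.8% of the gene body peaks of the comparison genes, whose median was 0.721 RPM (quartiles 0.512 and 1.18). The number of 3 gene body peaks equalled the median for the comparison genes.

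The 7 upstream peaks were far apart and ranged from 0.243 to 1.09 RPM, against a median of 0.673 RPM over all distal peaks, which 2 of them exceeded. The nearest, at 268509 to 268708 and 8.07 kb from the start, had 0.566, 0.422 and 0.546 RPM (0.511 ± 0.0780). The peak at 274348 to 274810, 13.9 kb upstream, was the strongest distal peak of the locus, with 1.26, 0.721 and 1.30 RPM (1.09 ± 0.324). Replicate 2 was low here, and the other replicates were alike.

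The next peaks lay beyond 50 kb. The peak at 313319 to 313599, 52.9 kb upstream, had 0.679, 0.580 and 0.364 RPM (0.541 ± 0.161), with replicate 3 low. The peak at 323874 to 324073, 63.4 kb upstream, was the weakest of the 12, with 10, 17 and 16 reads or 0.207, 0.316 and 0.206 RPM (0.243 ± 0.0633). Only 1.35% of all merged peaks were weaker.

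The last 3 upstream peaks lay 130 to 163 kb from the start. Like all peaks outside the gene, they were assigned to it by nearness alone. They spanned 389981 to 390372 (0.562 ± 0.219 RPM), 396362 to 396578 (0.478 ± 0.0179 RPM) and 423681 to 424079 (0.731 ± 0.0961 RPM). The peak past the gene end, at 214720 to 214919 and 7.30 kb beyond it, had 0.717, 0.281 and 0.570 RPM (0.523 ± 0.222), with the largest relative spread of the 12 peaks.

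**Figure D4:**
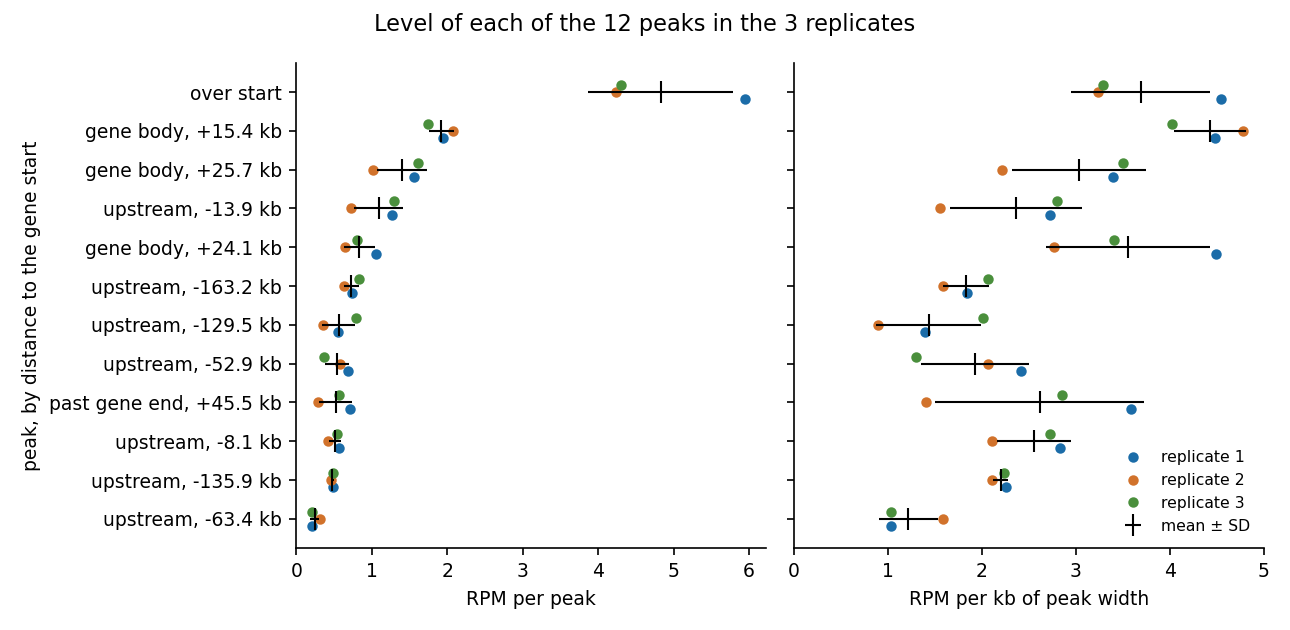
RPM per peak (left) and RPM per kb of peak width (right) of the 12 peaks, ordered by mean RPM, with colored points for the replicates and black bars for the mean ± SD (n = 3). The start peak stands apart in RPM, with 4.83 ± 0.964, whereas per kb it overlaps with the gene body peak at +15.4 kb, which had 4.43 ± 0.380.

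Ordered by mean RPM, the start peak came first, the gene body peaks at 15.4 and 25.7 kb came next, and the upstream peak at 63.4 kb came last. The replicate ranges did not overlap between the start peak and the peak at 15.4 kb, between the latter and the peak at 25.7 kb, and between the weakest peak and the one above it. In the other 8 of the 11 pairs of neighbours the ranges overlapped, so that the order of the peaks between was not resolved. The ranks were nevertheless similar between replicates. Spearman's coefficient over the 12 peaks was 0.874 for replicates 1 and 2, 0.923 for 1 and 3, and 0.832 for 2 and 3, and without the start peak 0.836, 0.90 and 0.782. The peaks share libraries and differ in width, and these coefficients are a description. Replicate 2 gave the lowest RPM in 9 of the 12 peaks, compared with 39.5% of all merged peaks, and replicate 1 gave the lowest in 0 of them, compared with 35.8%.

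The start peak exceeded the other peaks of the gene in each replicate. The difference between the start peak and the median of the other 11 peaks was 2.94, 2.73 and 2.35 on the log2(RPM + 0.0684) scale, with a mean of 2.67 ± 0.30 (exact sign-flip permutation test, p = 0.25, the smallest possible). Per kb of width the difference was 0.51 ± 0.23. In 80 of the 183 comparison genes (43.7%) the start peak was likewise the strongest peak of its gene. The share of the reads of a gene that fell in its start peak was a median of 17.3% (quartiles 11.8% and 23.7%) in the comparison genes, and 9 of them exceeded the 35.6% of Frizzled-10. These shares were not adjusted for width, and the comparison start peaks were narrower, with a median of 658 bp against 1308 bp.

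The median gene body peak was stronger than the median distal peak, where distal peaks are the 8 peaks that lay 3 kb or more from the start and outside any listed gene. The medians of the 3 gene body peaks were 1.57, 1.02 and 1.61 RPM, and those of the 8 distal peaks 0.622, 0.440 and 0.558 RPM. The difference of the medians was 1.25, 1.10 and 1.43 on the log2(RPM + 0.0684) scale and 0.75 ± 0.12 per kb of width. The groups overlapped in RPM, as the distal peak at 274348 exceeded the weakest gene body peak, at 236133, in each replicate. Per kb, the lowest gene body peak was above the highest distal peak in replicates 2 and 3, with 2.21 against 2.11 and 3.41 against 2.85 RPM per kb, but not in replicate 1, with 3.40 against 3.58. Among the 454 comparison genes with peaks of both kinds, the median difference was 0.05 on the log2 RPM scale (quartiles -0.40 and 0.53), and 95.8% of these genes had a smaller difference than Frizzled-10. This contrast was chosen after its values were seen, and it is given as a description.

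The distal peaks of the gene were not separated from those of the comparison genes beyond replicate error. Their median was 0.540 ± 0.0928 RPM, against 0.651 ± 0.0247 RPM for the median over 508 comparison genes with 3463 distal peaks. In replicates 1, 2 and 3 the log2 difference was -0.02, -0.47 and -0.25 (mean -0.25 ± 0.22) and was about as large as its spread (exact sign-flip permutation test, p = 0.25, the smallest possible). Per kb of width it was -0.02 ± 0.26, as the distal peaks of Frizzled-10 were narrow, with a median of 249 bp against 317 bp. Their strongest member, with 1.09 RPM, was weaker than the strongest distal peak of a median comparison gene, which had 1.54 RPM (quartiles 1.02 and 2.60).

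Most of the 12 peaks stood above the mean read density outside peaks. A one-sided Poisson test with Benjamini-Hochberg adjustment over all peaks of a library called 11, 11 and 12 of them in replicates 1, 2 and 3, where 93.7%, 95.9% and 98.3% of all merged peaks were called. In all 3 replicates 10 of the 12 were called, against 90.2% of all merged peaks, so that the share of the locus was near the background. The start peak was called, as were 99.4% of all peaks over a gene start. All 3 gene body peaks were called, against 90.8% of gene body peaks in general. Of the 8 distal peaks 6 were called, against 88.8% of distal peaks.

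The peaks not called in all replicates were the upstream peaks at 129.5 and 63.4 kb. The former held 19 reads in replicate 2, or 1.48 times the background, and the latter 10 reads in replicate 1, or 1.65 times the background. The latter was 200 bp wide, a width at which 82% of merged peaks were called. With counts and background halved to allow for read pairs, 9 of the 12 were called, compared with 80.4% of all merged peaks, and the peak past the gene end was no longer among them. With a background density 2 times higher, 6 of the 12 peaks were called, compared with 51.6% of all merged peaks, and the start peak was among them.

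The neighbouring listed genes were far away. The nearest listed gene on the side of the gene end, evm.TU.ctg321.6 (41173 to 119409, minus strand), lay 103 kb away and also had 12 peaks. Its start peak at 118844 to 119641 had 3.64, 2.18 and 2.61 RPM (2.81 ± 0.751), below the Frizzled-10 start peak in each replicate. The nearest listed gene upstream, evm.TU.ctg321.13 (593168 to 728746, plus strand), lay 333 kb away. It had no assigned peak over its start, and its strongest peak, at 433609 to 434159 and 159 kb upstream, had 1.60 ± 0.0446 RPM. Only genes nearest to at least 1 peak are listed, so that genes without a peak may lie between. The start peak of Frizzled-10 was separated from the nearest other peak by 7.07 kb, against a median of 4.62 kb (quartiles 0.816 and 8.63 kb) for the comparison start peaks.

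The 3 comparison genes most like Frizzled-10 were found by the sum over replicates of the absolute log2 differences at the start peak and in the median distal peak, among those of the 183 genes that also had distal peaks. The closest, evm.TU.ctg743.11, had a start peak at 895233 to 896367 of ctg743 with 6.73, 3.71 and 4.45 RPM and a summed difference of 0.96. The second, evm.TU.ctg1203.10, had one at 474257 to 474954 of ctg1203 with 5.41, 4.04 and 4.57 RPM and a summed difference of 0.98. The third, evm.TU.ctg646.12, had one at 653576 to 654815 of ctg646 with 7.68, 4.40 and 4.61 RPM and a summed difference of 1.36. The median summed difference over these genes was 5.38.

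Frizzled receptors belong to the wider class of G-protein-coupled receptors (GPCRs), and the study lists 14 other candidate GPCR genes, chosen partly on these samples. Of the 14 genes, 3 had a start peak, against 26.0% of all listed genes, and 5 had a peak less than 3 kb from the start. The share of all listed genes with such a near peak is not given here. Each of the 3 start peaks was above background in all replicates, as were 99.4% of all peaks over a gene start. The 3 genes, named after their values were seen, were evm.TU.ctg115.32 with 3.36 ± 0.908 RPM, evm.TU.ctg25.48 with 2.34 ± 0.577 RPM, and evm.TU.ctg288.3 with 0.851 ± 0.0854 RPM. Each was below the Frizzled-10 start peak in every replicate. None of the 3 was among the genes that the study took as GPCRs from their predicted structure. Apart from Frizzled-10, the genes that it did take as such had no start peak. The start peaks are thus compared with those of candidates only. The strongest peak of the 14 genes, wherever it lay, ranged from 0.672 to 15.1 RPM with a median of 2.08 RPM, and 2 of the 14 exceeded 4.83 RPM. These genes differ in length and peak number, and the values were not matched. One of the candidates, evm.TU.ctg25.48, is also among the comparison genes with a start peak.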

How the data were processed

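ATAC-seq was performed by the authors on 3 samples of the ArR_30min group. Per the study's methods, reads were trimmed with skewer, aligned with BWA to the *A. franciscana* assembly ASM3288406v1 although the cysts are of another species, filtered by mapping quality, and de-duplicated. Divergence between the species can cost reads, and counts are then too low. Peaks were called with MACS2 and, per the study's text, merged over all samples, which include time points not analysed here. The deposited counts are raw reads per merged peak and library. The deposited RPM values are (count + 1) over the library size, and library totals were recovered from this relation, which held to within 0.0005%. These totals are close to 2 times the de-duplicated numbers the study gives, so both reads of a pair were counted, and intervals were computed on halved counts. The Poisson calls used the deposited counts, with halved counts as an alternative.

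Computations used Python 3.11.15, numpy 2.4.6, pandas 2.3.3 and scipy 1.17.1. Log2 values had a pseudocount of 0.0684 RPM, which is 0.1 of the median. Comparison genes were within 1.5 times the gene length and within 2 peaks of the peak number. The background was the mean density of reads outside peaks over the 1583 Mb spanned by listed peaks and genes, i.e., 30.2, 32.8 and 47.2 reads per kb. Peaks were called at an adjusted p under 0.05. The test was checked on simulated Poisson counts, which lack the read pairs and the extra spread of the real libraries. The check therefore could not show false calls that come from these. Chi-square statistics for pairs of libraries were 2.37 to 3.28 per degree of freedom and no pair was identical. Counting both reads of a pair raises these statistics, so they cannot show that the samples are separate. Each library was counted as 1 sample, as the study describes them as biological replicates. Nothing states separate cultures, so the spread between these samples may be technical. The sign-flip p-values do not measure this spread. Replicates that all have the same sign give the smallest possible p, however large their spread. Named genes are Frizzled-10, its neighbours on the contig and the 3 most alike comparison genes. The gene and these lists were chosen with earlier results of these data known.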

Additional observations from a re-analysis of the deposited data

How the results depend on the processing

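All 22 alternatives run for the 3 tested differences kept their direction. They included RPM per kb, another pseudocount, wider limits on gene length and peak number, and leaving out each replicate. Leaving out a replicate could not change a direction, because the 3 replicates had the same sign in each main difference. Another pseudocount could hardly do so either, since it keeps the order of the values. None of the alternatives could change a call, since p could not fall below 0.25. The difference of the distal peaks had replicates of both signs in RPM per kb and over peaks above background. In RPM per kb its mean was -0.02 ± 0.26, so that no direction was resolved there. The percentile of the start peak was 73.2 in RPM per kb, 80.7 among start peaks of like width and 94.0 among all start peaks. Its share of the reads of the gene was 12.2% per kb of width. Scaled to reads in peaks instead of the library total, its level was 40.9 reads per 1000000. The excess in replicate 1 was 0.24 on the log2 scale when set against the median of the other peaks of the gene. With a background density 2 times higher, 6 peaks were called in all replicates, and 9 were called with halved counts. No paired analysis was possible because there is only one group of samples. Depth limits the weak peaks, of which the weakest held 10 to 17 reads.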
